A study of Arabidopsis thaliana with 16 samples.

Results

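CML41 (AT3G50770) is a calmodulin-like gene of Arabidopsis thaliana, measured here by the 1 probe whose annotation names it and no other gene. It is 1 of 691 genes that a probe names alone, on arrays of 3439 probes. It was chosen by its higher intensity in the pete1 mutant on these same arrays, so its levels are described and no p-value is given for them. Calmodulin-like proteins bind calcium through EF hands and pass a rise in cellular calcium on to partner proteins. In Arabidopsis leaves CML41 sits at plasmodesmata, the channels between neighbouring cells, where it promotes callose deposition and closure after bacterial flagellin is perceived.

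There were 16 arrays of total RNA, 8 from wild-type plants (WT) and 8 from pete1, a mutant without 1 of the plastocyanin isoforms. Plastocyanin is the copper protein that carries electrons from the cytochrome b6f complex to photosystem I. Plants of both groups were of ecotype Columbia 0 and grew on soil. The labels name no organ, plant age or allele. They leave unstated whether a group's arrays hold RNA of different plants, so any p-value measures the spread between arrays, which may be technical. Of 39 marker genes for leaf, root, flower, seed and single cell types, 0 were measured by a probe of their own, so the tissue could not be checked. The plastocyanin genes are not named alone by a probe either. The deposited intensities run from 0 to a ceiling of 100. Their depth is not that of a count, and the number of arrays limits the precision. Array medians ran from 0.129 to 0.193 in WT. In pete1 they ran from 0.0524 to 0.0856 on replicates 1 to 4, called the dim pete1 arrays here, and from 0.196 to 0.205 on replicates 5 to 8. Within a group, replicate 1 tended to deviate from the group mean together with replicate 2, 3 with 4, 5 with 6 and 7 with 8. The median correlation of such deviations over probes was 0.439 (lowest 0.136), against -0.300 (highest 0.195) for other arrays of a group. The ranges thus overlapped. Deviations from a shared mean are pushed towards negative correlations, so -0.300 is no neutral baseline. Averages of the consecutive pairs are given beside the values per array.

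As deposited, CML41 was higher on 5 of 8 pete1 arrays than on any WT array, and inside the WT range on the other 3. As deposited, 0.349% of all probes had all 8 pete1 arrays above all 8 WT arrays, and CML41 was not among them. In WT its intensity was 0.156, 0.157, 0.0931, 0.0921, 0.0955, 0.131, 0.109 and 0.156 on replicates 1 to 8. In pete1 it was 0.141, 0.0976, 0.124 and 0.285 on replicates 1 to 4, and 0.401, 0.401, 0.341 and 0.367 on replicates 5 to 8. The pete1 arrays inside the WT range are replicates 1, 2 and 3, which belong to the dim arrays named above, whereas replicates 5 to 8 lie close together. The probe was above 0 on all 16 arrays. In RNA of whole tissue, a change in the number of cells that use a gene and a change in RNA per cell cannot be told apart.

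Once each value is set against the brightness of its own array, the groups no longer overlapped. CML41 stood at 0.595 to 0.931 times the array median in WT and at 1.54 to 3.33 times in pete1. The same 3 pete1 replicates that matched WT as deposited were at 2.69, 1.67 and 1.54 times their array median. After quantile normalization, which gives every array the same distribution of values, the log2 intensity in WT was -2.86, -2.89, -3.24, -3.35, -3.53, -3.04, -3.50 and -3.06 on replicates 1 to 8. In pete1 it was -1.56, -2.13, -2.20, -1.22, -1.63, -1.62, -1.94 and -1.83. All 8 pete1 arrays were above all 8 WT arrays, with a gap of 0.66 between the lowest pete1 and the highest WT array. This holds upward for 1.4% of all probes, and 1.69% lay wholly below WT. The gap of CML41 ranked 6 of 3439, and since the gene was chosen for this contrast nothing is read from the rank.

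**Figure D1:**
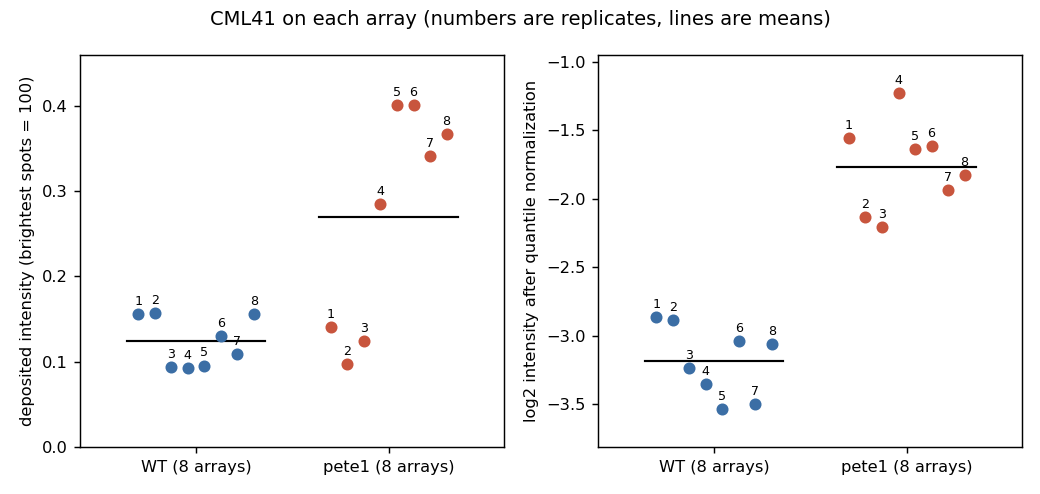
CML41 on each array, as deposited (left, linear intensity with the brightest spots at 100) and as log2 intensity after quantile normalization (right); each point is 1 array with its replicate number and lines are group means. As deposited, pete1 replicates 1 to 3 lie inside the WT range of 0.0921 to 0.157, and after normalization the lowest pete1 array is at -2.20 and the highest WT array at -2.86.

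The group means on the normalized log2 scale were -3.18 ± 0.26 in WT and -1.77 ± 0.32 in pete1 (SD, n = 8 arrays). Their difference is 1.42, or 2.67-fold. Over pair averages the means were -3.18 ± 0.21 and -1.77 ± 0.12 (SD, n = 4), and the SE of the difference from these 8 averages alone was 0.12. In limma's fit, which draws each probe's spread towards that of all probes, the SE was 0.23 over 16 arrays and 0.40 over pair averages. In WT, replicates 1 and 2 averaged -2.88 and the other pairs between -3.29 and -3.28. In pete1 the pairs averaged -1.84, -1.71, -1.63 and -1.88. The averages of the pairs were thus closer together than some arrays inside a pair. Replicates 3 and 4 of pete1 differed by 0.98 and replicates 1 and 2 by -0.57 (second minus first), whereas replicates 5 and 6 of pete1 differed by 0.019. In WT the differences inside a pair ran from -0.12 to 0.50. Between same-numbered arrays, pete1 was above WT by 0.76 to 2.13 after normalization. Since the normalized groups did not overlap, any matching of arrays gives 8 of 8 there. As deposited, pete1 was above WT in 6 of 8.

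The position of the probe within its own array does not depend on any scaling that keeps the order of values. Ranked from the dimmest of 3439 probes, CML41 stood between 1225 and 1637 on the WT arrays and between 2124 and 2711 on the pete1 arrays. As a percentile of the array this is a median of 42.1 in WT (35.6 to 47.6) and 70.7 in pete1 (61.8 to 78.8). The groups did not overlap, as was the case upward for 1.34% of probes. The highest pete1 positions were those of replicates 4 and 1, both dim arrays, and the lowest those of replicates 3 and 2, also dim arrays. The share of probes at 0 was 13.2% to 17.8% on the WT arrays, 17.9% to 24.6% on pete1 replicates 1 to 4 and 15.8% to 18.4% on replicates 5 to 8. A rank compares arrays for this probe and is no measure of transcript abundance relative to other genes.

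**Figure D2:**
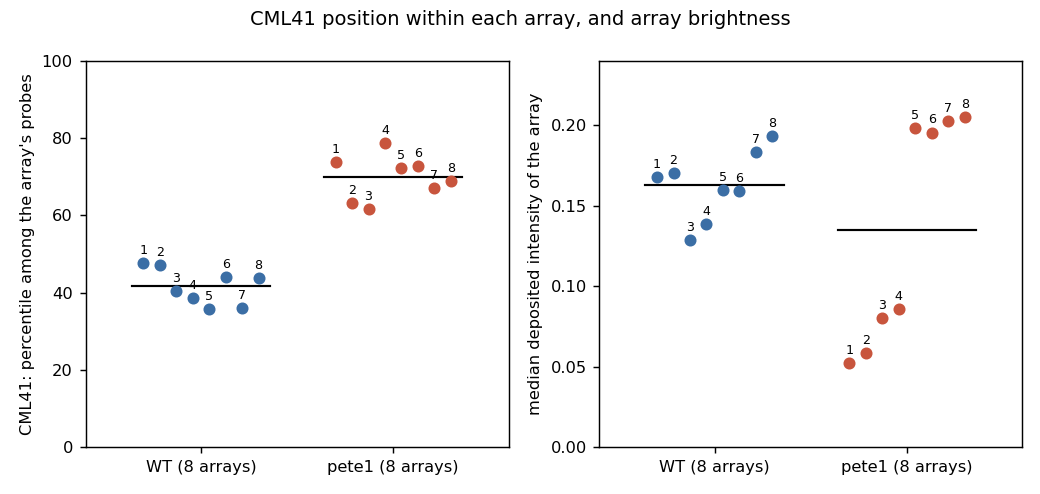
Percentile of CML41 among the 3439 probes of each array (left) and median deposited intensity of the same arrays (right); each point is 1 array with its replicate number and lines are group means. The percentile runs from 35.6 to 47.6 in WT and from 61.8 to 78.8 in pete1, while pete1 replicates 1 to 4 have array medians below those of every WT array.

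The dim and the other pete1 arrays gave nearly the same difference after normalization. It was 1.41 for replicates 1 to 4 and 1.43 for replicates 5 to 8, each against the 8 WT arrays. On the deposited log2 scale the values were 0.30 and 1.64, a fold of 1.23 and of 3.12. The level on the dim arrays was the more scattered one, with an SD of 0.47 against 0.16 on replicates 5 to 8 (normalized log2, n = 4 each).

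The difference was positive under each of 5 scalings, and its size depended on how array brightness was handled. It was 1.42 with quantile normalization, 1.44 with median centring, 1.41 with centring on the 75th percentile, 1.51 with cyclic loess and 0.97 on the deposited scale. All 8 pete1 arrays lay above all WT arrays under each of these except the deposited scale. The median of all probes itself shifted by 0.22 with quantile normalization, by -0.088 with median centring, by -0.12 with the 75th percentile, by 0.01 with cyclic loess and by -0.56 as deposited. Relative to that median probe CML41 was higher by 1.19 with quantile normalization, by 1.497 with cyclic loess and by 1.53 with each of the other 3. The last 3 are equal by arithmetic, since they differ only by a constant per array on the log2 scale.

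**Figure D3:**
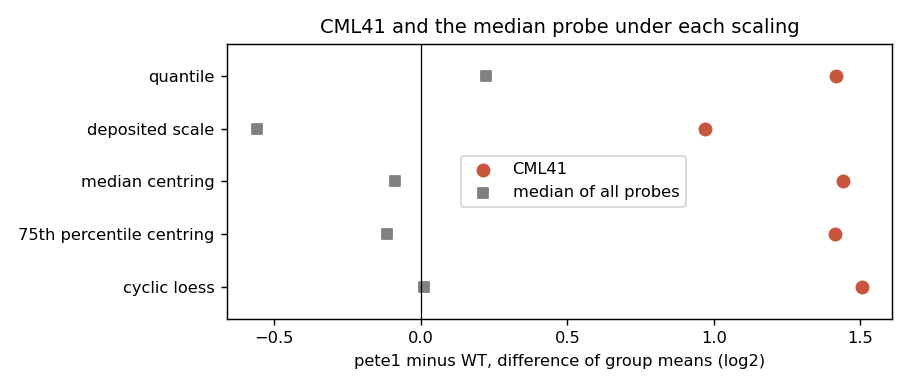
Difference of the group means, pete1 minus WT, on the log2 scale for CML41 (circles) and for the median of all 3439 probes (squares) under 5 scalings. CML41 lies between 0.97 and 1.51 and the median probe between -0.56 and 0.22.

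Most of the probes with a larger fitted rise than CML41 had dim values. CML41 ranked 155 of 3439 by its rise. A floor was set for each array at the 5th percentile of its normalized values above 0, which is no detection limit. The highest of these floors, 0.0581, is called the common floor. Of the 154 probes ahead of CML41, 131 had a normalized value at or under it, as did all but 1275 of the 3439 probes. CML41 had 0 arrays there, and its lowest value lay 0.57 above that level on the log2 scale. Among the 1275 probes without a value at the common floor it ranked 24, and among the 253 of these that name 1 gene it ranked 9. Its SD within groups was 0.29, against a median of 0.63 over these 1275 probes, 2.75% of which had a smaller one. These places describe the probe that was chosen and are not tests.

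None of the other measured genes from the calcium lists used here passed the test as higher in pete1, and 1 of them fell. The lists of calcium sensors, calcium transport, chloroplast calcium, plasmodesmata and callose, and pattern-triggered immunity hold 355 entries, of which 4 besides CML41 were measured by a probe of their own. None of the plasmodesma, callose, immunity or chloroplast calcium entries was among them. Members were matched by symbol, synonym or keyword, so a calcium gene that the annotation gives by locus name alone could be missed. In the limma fit over 16 arrays, 1 of the 4 fell in pete1, 0 rose and 3 did not pass, whereas 13.5% of all probes passed, 5.26% as lower and 8.23% as higher. The median difference of the 4 was -0.93 on the log2 scale, against 0.22 over all probes. It describes these 4 listed genes and not calcium genes at large. Over pair averages 0 of the 4 passed limma's test, 2 with an unadjusted p under 0.05, while 0.262% of all probes passed, 0.116% as lower.

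CML30, a calmodulin-like gene whose protein is found in mitochondria, was the gene that fell. Its deposited intensity in WT had a lowest value of 1.82, a median of 5.69 and a highest of 7.39, and in pete1 0.877, 2.03 and 2.69. After normalization the log2 intensity was 1.08 to 3.09 in WT and 0.54 to 1.32 in pete1. WT replicates 1 and 2, at 1.09 and 1.08, lay in the pete1 range, so the groups overlapped, and 4 of 8 pete1 arrays were below the lowest WT array. CML30 fell by 1.21 (SE 0.32; limma adjusted p = 0.0191 over 16 arrays). The call was lost over pair averages (limma adjusted p = 0.277), with consecutive arrays as a random block (0.1006), with median centring (0.0787) and without the dim pete1 arrays (0.152).

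GLR2.7 encodes a glutamate receptor-like channel, of a family that conducts calcium into plant cells. Its log2 intensity was -1.35 to 0.39 in WT, with a median of -0.74, and -5.38 to -0.33 in pete1, with a median of -1.64. The lowest of these is pete1 replicate 6, where the deposited value is 0 although replicate 5 had the highest pete1 value. The difference was -1.45 (SE 0.54; limma adjusted p = 0.0690 over 16 arrays and 0.253 over pair averages). It passed on the deposited scale (adjusted p = 0.0362), with array weights (0.0236) and without pete1 replicate 5 (0.0424).

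IQD22 and IQD32 belong to a plant family of calmodulin-binding proteins with IQ motifs. IQD22 was at -3.24 to -2.54 in WT and -4.37 to -2.61 in pete1, and 6 of 8 pete1 arrays were below the lowest WT array, 2 of them at the common floor. Its difference was -0.65 (SE 0.29; limma adjusted p = 0.103). IQD32 was at -3.42 to -1.16 in WT and -3.81 to -0.50 in pete1, with a difference of -0.18 (SE 0.46; limma adjusted p = 0.818) that turned to 0.0067 without WT replicate 7 and to 0.26 without the dim pete1 arrays. The values of IQD32 in the groups overlapped widely.

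**Figure D4:**
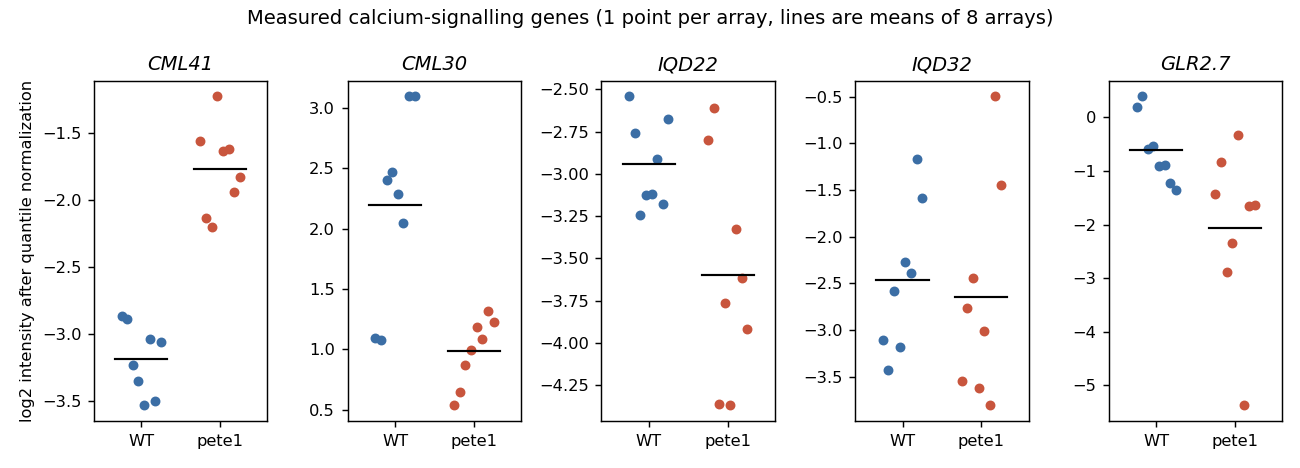
Normalized log2 intensity of CML41 and the 4 other measured genes of the calcium lists, 1 point per array in replicate order, lines at the means of 8 arrays. Each panel has its own axis. CML41 is higher in pete1 on 8 of 8 arrays, CML30 is lower with overlap at WT replicates 1 and 2, and GLR2.7 has 1 pete1 array at -5.38.

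The genes with the profile most like that of CML41 were sought among 309 other probes that name 1 gene and have no value at the floor of an array. Over 16 arrays of normalized values the Pearson correlation was 0.853 for AT4G13550, 0.844 for AT4G32060, 0.830 for OTP70, 0.828 for AT1G17160, 0.823 for AT1G51550 and 0.802 for AT2G35390. The median over the 309 was 0.057. OTP70, a pentatricopeptide repeat protein needed for splicing of a chloroplast transcript, was at -3.98 to -2.59 in WT and -2.15 to -1.29 in pete1. AT4G13550 was at -2.05 to -0.32 and -0.45 to 0.79, and AT4G32060 at -0.62 to 0.82 and 0.96 to 2.26. The groups did not overlap for OTP70, AT4G32060 and AT1G17160, and overlapped for AT4G13550, AT1G51550 and AT2G35390. All were picked by a correlation that holds the group difference, so such separation is partly built in. Of all probes, 1.4% had every pete1 array above every WT array.

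These correlations hold the group difference by which CML41 was chosen. With each group's mean removed they were 0.304 for AT4G13550, 0.184 for AT4G32060, -0.062 for OTP70, 0.403 for AT1G17160, 0.156 for AT1G51550 and 0.236 for AT2G35390. The 6 genes most alike by this second measure were other ones, with 0 shared. They were AT2G05120 (0.639), AT5G52810 (0.581), AT3G15490 (0.581), AT4G16610 (0.569), AT2G46050 (0.550) and AT1G76050 (0.522). Their differences between the groups were mixed, at 0.94 for AT2G46050, 0.13 for AT2G05120, -0.38 for AT5G52810, -0.68 for AT4G16610, -0.71 for AT1G76050 and -2.02 for AT3G15490. AT2G46050 also correlated with CML41 at 0.687 over 16 arrays. On the deposited scale, where array brightness is kept, the 6 correlations with group means removed were 0.732 to 0.890. Over pair averages with 1 pair left out they moved by over 1.5 times for 5 of the 6, all but AT2G05120. The arrays share brightness and the pair structure, and with 16 arrays these values are descriptions.

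**Figure D5:**
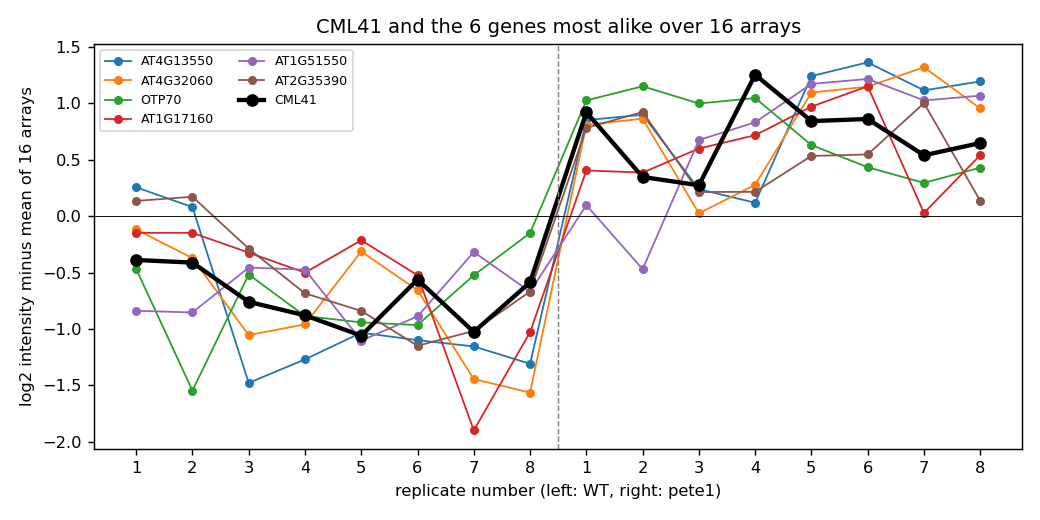
Normalized log2 intensity minus the mean of 16 arrays for CML41 (black) and the 6 genes with the highest correlation over 16 arrays, WT replicates on the left and pete1 replicates on the right of the dashed line. The mean of each of the 7 profiles is higher in pete1, while inside a group the lines cross.

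The values of the probes next to CML41 by number and by level are given beside it. The probe numbered before it, which has no gene name here, had a difference of -1.27, and the probe after it, which names several genes, had one of 1.003 with the floor of each array. That second value is no measured fold, since it was down at the common floor on every WT array and on 7 of the pete1 arrays. Within 12 numbers on each side, 10 probes had no value at the common floor; their differences ran from -1.27 to 1.02 with a median of 0.15, and 6 of the 10 were positive. The genes next to CML41 in mean level were AT5G44000, with a difference of -0.42, and AT5G58330, the chloroplast NADP-dependent malate dehydrogenase, with -0.60. Each of these had overlapping groups and 1 pete1 array at the common floor.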

How the data were processed

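Per the labels, total RNA of 8 WT and 8 pete1 samples was hybridised to arrays, and groups and replicate numbers come from the sample titles. The deposited values were read as intensity on a linear scale up to a ceiling of 100 (scanner, background correction and scaling: not given in the sources used here). Array medians differ, so quantile normalization was applied (limma 3.58.1, R 4.3.3). Each array's floor was the 5th percentile of its values above 0, and lower values were raised to the floor before log2 was taken. All 3439 probes were fitted with lmFit and eBayes over 16 arrays, two-sided, with Benjamini-Hochberg adjustment at 0.05, and again over averages of consecutive arrays. The fit was tested on simulated data with independent arrays. This leaves out the correlation of consecutive arrays, so it does not check the fit under that structure.

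The platform annotation gives 692 probes 1 gene, 870 several and 1877 none; 690 of the 692 matched RefSeq TAIR10.1, used for names alone. The gene and the lists were chosen with earlier results of these data known. Named are CML41, every measured member of the calcium, plasmodesma and immunity lists, the 6 genes most alike by each of 2 measures, and the neighbours in level and in probe number. For WT and pete1 arrays of one number the deviations correlate at 0.011 to 0.408, and 7 of 8 exceed 0.1. The labels state no pairing and 1 of the 8 falls short, so the main fit has no block; the fit with it is given in the closing section. Alternatives were other scalings, floors, filters, weights, blocks, pair averages and leaving out arrays or pairs.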

Additional observations from a re-analysis of the deposited data

Results flagged for a closer look

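For each group of 8 arrays, a test for one extreme value was applied to the named genes, to the deposited intensity and percentile of CML41, to the array medians and to the percentages of 0. An extreme value was found in 4 of 50 sets, where chance gives about 1 in 20. None of the 4 concerns CML41 or a calcium gene. Among the genes most like CML41 with group means removed, AT5G52810 stood at -0.31 on WT replicate 1 (nearest value -2.01) and at -3.66 on pete1 replicate 3 (nearest -2.62). AT4G16610 stood at -0.78 on WT replicate 2 (nearest -2.04). AT5G58330, next to CML41 in mean level, stood at 1.15 on pete1 replicate 7 (nearest -2.12). All are normalized log2 intensities, and no explanation was tested.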

How the results depend on the processing

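Fits without the dim pete1 arrays and pair averages on the deposited scale were added after seeing the data, and all other settings were listed earlier. The difference of CML41 was 1.42 as reported. The gene was chosen for this rise, so a positive sign in every setting is no support for it. Other floors, blocks and pair averages of all arrays could not change its size. No value of the probe was at a floor, and the groups are balanced. The difference stayed positive in 39 of 39 settings, from 0.97 to 1.64. It was 0.97 on the deposited scale (also over pair averages), 1.104 with an offset in place of a floor, 1.33 to 1.48 with 1 array left out and 1.37 to 1.52 with 1 pair left out. As reported 464 probes were called, 283 higher and 181 lower. There were 269 calls (27 of them higher) on the deposited scale, 775 (579) with a floor at the 1st percentile and 762 with array weights, where 340 were lower. Median centring gave 168 higher, the 75th percentile 169, leaving out the dimmest 25% of probes 185 and leaving out the dim pete1 arrays 182. With 1 array left out the calls numbered 313 to 872, of which 167 to 659 were higher and 136 to 213 lower; the 872 and 659 are without pete1 replicate 5. Pair averages gave 9 (5 higher, 4 lower), 35 with the common floor (17 and 18) and 7 on the deposited scale (2 and 5). The random block gave 62 (23 and 39). Without 1 pair there were 5 to 22, with 3 to 8 higher and 2 to 15 lower. What equal replicate numbers stand for is unstated in the labels. The limma fit with the replicate number as a block called 494 probes. Of the 4 listed calcium genes it called CML30 (adjusted p = 0.0118) and no other. Of the 4 calcium genes 1 was called as reported, 2 on the deposited scale, with array weights and without pete1 replicate 5 (1 to 2 over arrays left out), and 0 with median centring, without the dim pete1 arrays and in every fit with pair averages or pairs as a random block. IQD32, not called in any setting, turned positive without WT replicate 7 (0.0067), without the dim pete1 arrays (0.26) and over pair averages without pete1 replicates 5 and 6 (0.077) or WT replicates 7 and 8 (0.18); with 1 pair left out it ran from -0.73 to 0.18, and with 1 array left out from -0.49 to 0.0067. The correlation of OTP70 with CML41 was -0.062 with group means removed. With 1 pair left out, correlations with group means removed ran from -0.076 to 0.857 for AT4G16610 and from -0.041 to 0.905 for AT5G52810 (both lowest without WT replicates 1 and 2), from 0.354 to 0.751 for AT2G46050, 0.655 to 0.952 for AT3G15490, 0.487 to 0.964 for AT1G76050 and 0.531 to 0.828 for AT2G05120. On the deposited scale these 6 correlations were higher, from 0.732 for AT2G05120 to 0.890 for AT2G46050. The cause was not tested. Dim probes are limited by values at 0 and by floors that differ between arrays.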
